A study of Mus musculus with 9 samples.

Results

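Collectrin (Tmem27) and 7 genes through which pancreatic beta cells sense glucose and other nutrients were followed in mice homozygous for the Glis3zf mutation and in wild-type (WT) mice. The 8 genes were Tmem27, Slc2a2, G6pc2, Slc30a8, Kcnj11, Abcc8, Glp1r and Ffar1, out of 28786 genes named on the postnatal array. They were chosen by name with earlier results of these data in view, among them the low embryonic signal of the Tmem27 probe set in mutants, so the embryonic values below are a description and carry no test. All animals were of the C57BL/6 strain and all RNA was labelled as pancreas. At E15.5 there were 3 samples of WT embryos and 4 of Glis3 mutants, each on its own Affymetrix array from 100 ng of RNA. The postnatal groups were 1 pool of 2 WT pups and 1 pool of 2 Glis3 mutant pups at postnatal day 3 (PND3), hybridised together from 500 ng of RNA on 2 Agilent arrays with the dyes exchanged. Whether each E15.5 sample stands for a different embryo is not in the labels. SDs therefore cover how far these samples lie apart, perhaps for technical reasons alone, and p-values set genotype differences against that spread.

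Beta cells take up glucose through Slc2a2 (GLUT2), a low-affinity glucose transporter that also serves liver, intestine and the proximal tubule of the kidney. The rise in ATP that follows closes the potassium channel formed by Kcnj11 (Kir6.2) and Abcc8 (SUR1), which depolarises the cell and releases insulin. G6pc2 is the catalytic subunit of an islet glucose-6-phosphatase and works against this flux, Slc30a8 carries zinc into insulin granules, and Glp1r and Ffar1 are receptors for an incretin hormone and for long-chain fatty acids that raise secretion. Tmem27 is a single-pass membrane protein. It is shed from beta cells by the protease Bace2, and in the proximal tubule it carries amino acid transporters of the Slc6 family to the brush border.

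The tissue of the PND3 pools was checked first, since several of the 8 genes are made in kidney as well as in islets. Of 13 islet endocrine markers, 7 gave signal well above background wherever they were read (2 pools on 2 arrays), and Ins1, Gcg, Ppy, Mafa, Neurod1 and Pcsk1 were not. All 13 proximal tubule markers and all 6 markers of other nephron segments did so too. Of 10 acinar markers, which mark the bulk of the pancreas, 7 were measured. Median scanner signals (mutant, WT pool) were 25.5 and 23.9 for islet markers with a probe, and 43.5 and 56.4 for acinar ones. Ins2 gave 89.1 and 88.9. The lowest signals called well above background were 10.3 to 16.5. Medians were 17167 and 17345 for proximal tubule markers, and 605 and 609 for all genes measured. The pools labelled pancreas thus carried transcripts of kidney markers, while islet and acinar markers were mostly dim. Different probes do not measure relative amounts of transcripts, so summed signals compare the pools within a list only. The summed scanner signal of the islet list lay between 1280 and 1358 in the mutant pool and between 1409 and 1597 in the WT pool on the 2 arrays. That of the proximal tubule list lay between 379028 and 387936 in the mutant pool and between 393319 and 430479 in the WT pool. That of the acinar list lay between 1285 and 1483 in the mutant pool and between 1299 and 1552 in the WT pool. Such sums rest largely on a few bright genes and do not show a shift of a whole list. Pcsk2, the brightest islet marker, gave 527 in the mutant and 701 in the WT pool. Among proximal tubule markers Miox gave 86656 and 122812, and Fbp1 went the other way at 115369 and 105057. The median log2 ratios of mutant over WT were -0.02 for the islet list and 0.00 for the proximal tubule list. The PND3 values below therefore cannot be read as those of pancreas or beta cells alone. The part of kidney RNA in them was not tested. The E15.5 table carries no gene names, so its tissue was not checked here. The targeted gene, Glis3, gave PND3 scanner signals of 22.1 and 21.5 in the WT pool and of 3.88 and 3.39 in the mutant pool, where neither array called its probe well above background. It could not be told from the sources used here if the mutation removes the sequence that the probe binds.

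Tmem27 was lower in every mutant sample than in every WT sample at E15.5. The probe set given for Tmem27, which no array annotation used here could check, had deposited intensities of 11117, 7842 and 8231 in WT replicates 1, 2 and 3. In mutant replicates 2, 3, 4 and 5 the intensities were 3008, 3783, 3054 and 2604. The highest mutant sample, replicate 3, thus lay well under the lowest WT sample, replicate 2, and the groups did not overlap. WT samples averaged 9063 ± 1789 (SD, n = 3) and mutants 3112 ± 491 (SD, n = 4), so mutants stood at 34.3% of WT. In bulk RNA, fewer cells of a type and less RNA per cell cannot be told apart. Mutant arrays were also dimmer as a whole, with medians over probe sets of 587 to 702 against 723 to 894 on WT arrays. After quantile normalization WT stood at a log2 level of 13.02 ± 0.35 (SD, n = 3) and mutants at 11.71 ± 0.16 (SD, n = 4). The difference was -1.31 (SE 0.17), or 2.49-fold lower, against -1.53 without normalization between arrays.

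**Figure D1:**
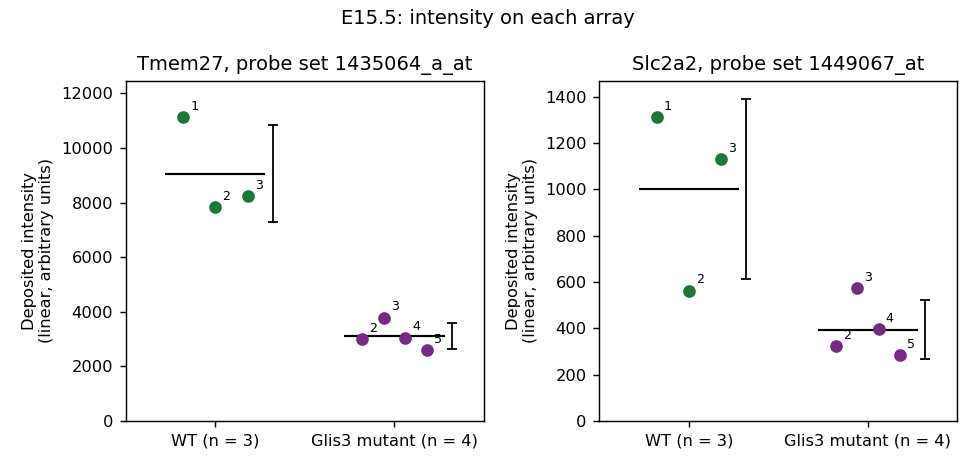
Deposited intensity on each E15.5 array (linear axis, arbitrary units) of the probe sets of Tmem27 (left) and Slc2a2 (right), with WT in green and Glis3 mutants in purple. Numbers are replicate numbers in the labels, horizontal lines are means and bars beside them are 1 SD; the 4 mutant points of Tmem27 lie below all 3 WT points, whereas for Slc2a2 mutant replicate 3 lies above WT replicate 2.

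Slc2a2 was lower on average in the mutants at E15.5, but its groups overlapped. The probe set given for Slc2a2, also unchecked, had intensities of 1311, 563 and 1130 in WT replicates 1, 2 and 3. The mutant replicates 2, 3, 4 and 5 gave 323, 574, 396 and 286. WT replicate 2 and mutant replicate 3 had nearly the same intensity, and the other 2 WT samples lay above all 4 mutants. WT samples averaged 1001 ± 390 (SD, n = 3) and mutants 395 ± 128 (SD, n = 4), or 39.4% of WT. On the normalized log2 scale WT stood at 9.75 ± 0.81 (SD, n = 3) and mutants at 8.76 ± 0.46 (SD, n = 4), a difference of -0.98 (SE 0.38). With a block for the replicate number the difference of Slc2a2 was -0.54 (SE 0.22), and that of Tmem27 was -1.07 (SE 0.17). Only replicates 2 and 3 occur in both genotypes, so WT replicate 1 and mutant replicates 4 and 5 do not enter these 2 estimates. Without WT replicate 2 or without mutant replicate 3 the Slc2a2 groups no longer overlapped.

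The 2 probe sets ranked the samples alike within each genotype. WT replicate 1 was the highest and WT replicate 2 the lowest in both, and among mutants replicate 3 was the highest, followed by replicate 4. This order held on the deposited and on the normalized scale. By overall array brightness, WT replicate 2 and mutant replicate 2 were the brightest arrays of their genotypes, and the part of brightness was not tested. The shared order is not particular to this pair. Within genotypes, Slc2a2 came 499th of 12163 probe sets in likeness to Tmem27, as given below.

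Across the 12164 E15.5 probe sets tested, limma called 0 at an adjusted p of 0.05 (0%), with 274 at an unadjusted p under 0.05. Neither the Tmem27 nor the Slc2a2 probe set was therefore called. In 218 probe sets, 1.79% of those tested, every mutant sample lay below every WT sample, as it did for Tmem27, and in 1.59% every mutant sample lay above. An estimate 2-fold or more lower was found for 20 probe sets (0.164%), Tmem27 included. Only 9 probe sets had a lower estimate than Tmem27. These shares use the contrast by which Tmem27 was picked and give its place only.

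**Figure D2:**
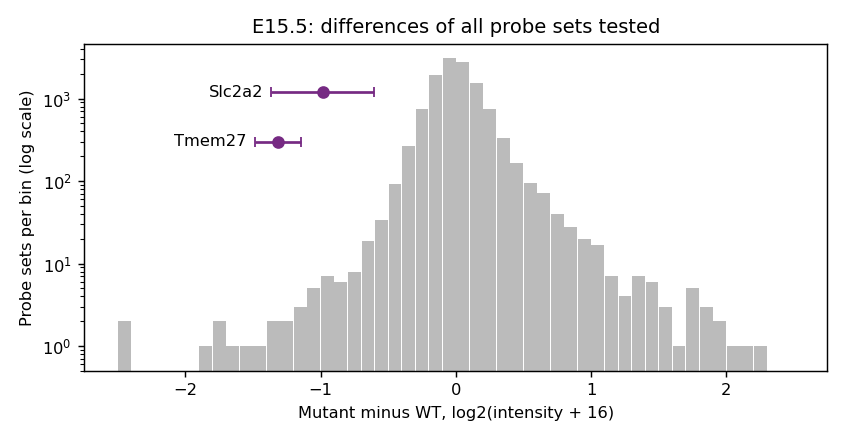
Mutant minus WT difference of the 12164 E15.5 probe sets tested, on the log2(intensity + 16) scale, as a histogram with a log count axis in which values beyond 2.5 either way are drawn in the outermost bins. Purple points mark Tmem27 at -1.31 and Slc2a2 at -0.98 with 1 SE, drawn at an arbitrary height; both lie in the thin lower tail.

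Likeness to the Tmem27 probe set was measured by Pearson's r with each of the 12163 other tested probe sets over the 7 arrays, which share their overall brightness and fall into 2 genotypes. The 3 most alike had r = 0.987, 0.986 and 0.978, with mutant minus WT differences of -1.19, -1.62 and -2.98. That these were lower in mutants follows from the choice of Tmem27 by its gap between genotypes. The Slc2a2 probe set came 87th, with r = 0.825. After each genotype's mean was taken off, so that only the spread within a genotype counted, the 3 closest had r = 0.995, 0.990 and 0.986. Their own differences between genotypes were 0.10 (SE 0.26), 0.30 (SE 0.15) and 0.18 (SE 0.16), and Slc2a2 came 499th with 0.788. The 3 closest probe sets of one ranking were not the 3 closest of the other. With 7 arrays, high values of r are given as a description only. The E15.5 table pairs none of them with a gene, so they are not named.

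The promoters of the 2 genes measured at both ages are shown because both had a lower mean in mutants at E15.5. Each window is the 250 bases before the gene's first RefSeq start in GRCm38.p6, on the plus strand, at chrX:164089937-164090186 for Tmem27 (Cltrn in RefSeq) and chr3:28697653-28697902 for Slc2a2. They were searched on both strands for TGGGGGGT, the core of the site that Glis3 binds, and are in lower case throughout because neither holds these letters.
Tmem27: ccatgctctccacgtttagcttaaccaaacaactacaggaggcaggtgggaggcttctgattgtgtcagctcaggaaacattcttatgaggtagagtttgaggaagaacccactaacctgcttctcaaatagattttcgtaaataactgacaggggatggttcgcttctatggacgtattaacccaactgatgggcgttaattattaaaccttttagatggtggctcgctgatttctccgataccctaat
Slc2a2: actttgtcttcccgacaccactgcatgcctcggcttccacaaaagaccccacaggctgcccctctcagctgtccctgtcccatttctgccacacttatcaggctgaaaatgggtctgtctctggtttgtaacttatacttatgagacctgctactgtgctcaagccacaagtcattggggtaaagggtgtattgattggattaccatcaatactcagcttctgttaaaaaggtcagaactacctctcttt
Of 32851 promoter windows of this length, 1.36% held the 8 letters. They were also in none of the windows listed for G6pc2, Glp1r and Ffar1. Windows for Slc30a8, Kcnj11 and Abcc8 were not used. A missing match says only that these letters are not in these bases.

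At PND3 the 8 genes had 10 probes among the 41174 on the array. Of these, 7 probes of 6 genes were measured, that is, well above background in at least 1 pool on both arrays. Slc30a8, Glp1r and 1 of 2 Abcc8 probes were not. With 1 pool per genotype there is no replicate and no test, and the 2 arrays are technical. For none of the 6 measured genes did the arrays both show a 2-fold difference one way, against 0.191% of the 20923 genes measured, so 0 of 6 is no departure from the background. Ratios are log2 of mutant over WT and are given first for the array on which Cy3 labelled the mutant RNA.

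Tmem27 was bright in both pools and slightly higher in the mutant pool. Its scanner signals were 20007 in the mutant and 17182 in the WT pool on the first array, and 17615 and 14933 on the other. The log2 ratios were 0.31 and 0.16, with a mean of 0.24, or 1.18-fold. Of all genes measured, 7.75% had a higher mean ratio, and 34.4% had a larger gap between the arrays. With median centring in place of loess, under which all genes had a median of -0.11, the ratio of Tmem27 was -0.02, still 0.09 above that median. Against 0 the sign at PND3 thus depended on the scaling, though Tmem27 lay above the median of all genes under both scalings. At E15.5 Tmem27 was 2.49-fold lower in mutants. The comparison of ages crosses platforms. It also sets E15.5 samples, whose tissue was not checked here, against PND3 pools in which proximal tubule markers were bright. It cannot be read as a change with age in pancreas and was not tested.

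Slc2a2 was slightly lower in the mutant pool by both of its probes. Probe A_51_P185693 gave 4234 in the mutant and 5245 in the WT pool on the first array and 4035 and 4361 on the second, and its ratios were -0.25 and -0.13. Probe A_52_P409988, of another sequence, gave ratios of -0.26 and -0.15. The means of -0.19 and -0.21 lay inside the central 95% of all genes, which ran from -0.40 to 0.36, and 13.3% of genes had a mean at or below that of the first probe. With median centring both were lower, at -0.40 and -0.39, but the median of all genes was then -0.11. From that median the probes stood at -0.29 and -0.28. The central 95% given above holds for loess only.

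The probes of Slc2a2 and Abcc8 are shown by the first 30 of their 60 bases, because the former pair agreed and the latter did not. Capitals mark nothing here, and the genome positions of the probes were not used.
Slc2a2 A_51_P185693: tagtttctttgatgtattttgcaaggttaa
Slc2a2 A_52_P409988: tggataaattcgcctggatgagttacgtga
Abcc8 A_51_P296995: gccatcctggagtttgacaaaccggagaag
Abcc8 A_52_P218188: tttttcttcttatgcccaaacctctgggct
Abcc8, the sulphonylurea receptor subunit, was well above background with A_51_P296995, at 298 in the mutant and 288 in the WT pool on the first array and 236 and 253 on the second. Its second probe gave no more than 3.77 in either pool and was not well above background on any array. The ratios of the measured probe were 0.00 and -0.09, so the pools could not be told apart.

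**Figure D3:**
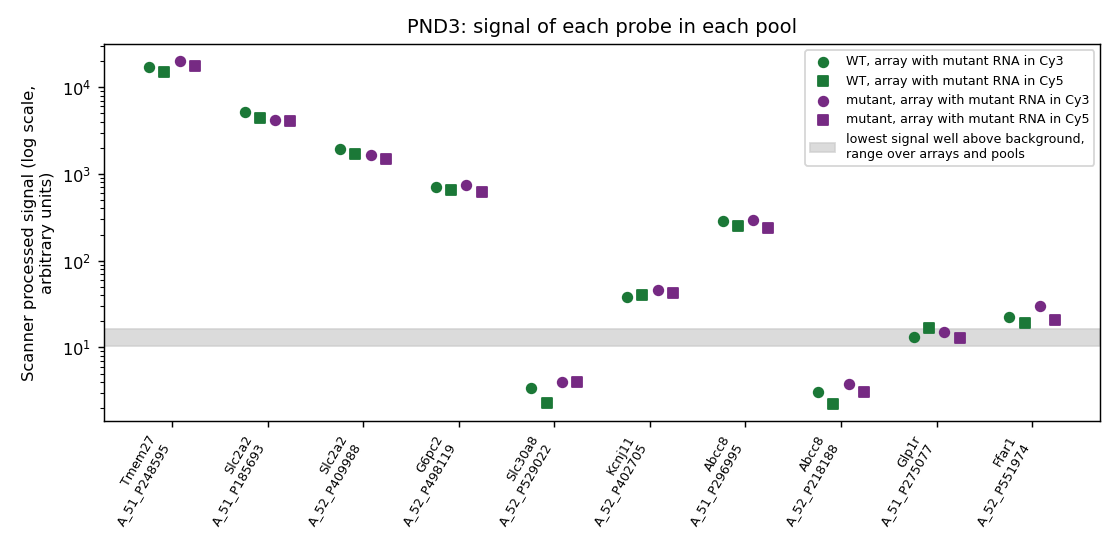
Scanner processed signal (log axis, arbitrary units) of each of the 10 probes in the WT (green) and mutant (purple) pools on the 2 PND3 arrays, with circles for the array whose Cy3 channel held mutant RNA and squares for the other. The grey band spans the lowest signals called well above background, 10.3 to 16.5; Slc30a8 and the second Abcc8 probe lie under it, Glp1r lies within or near it, and heights of different probes do not measure relative amounts of their transcripts.

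The other members of the glucose sensing apparatus differed little between the pools or were dim. G6pc2 gave 748 in the mutant and 705 in the WT pool on the first array and 627 and 653 on the second, so its ratios of 0.12 and -0.09 had opposite signs. Kcnj11, the pore subunit that pairs with Abcc8, was dim, with signals between 38.4 and 45.4 and ratios of 0.05 on both arrays. Ffar1 was dimmer still, between 19.2 and 30.005, with ratios of 0.05 and -0.06. The scanner software's own ratios, which differ in background correction and in normalization, averaged 0.16 for Kcnj11 and 0.27 for Ffar1, and median centring gave 0.10 and 0.15. The scanner gave Glp1r signals of 12.997 to 16.7, well above background only in the WT pool on 1 array. Slc30a8 gave 2.27 to 4.03 and was not well above background in either pool. No ratio is given for these 2 genes, and such signals do not show that their transcripts were absent.

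**Figure D4:**
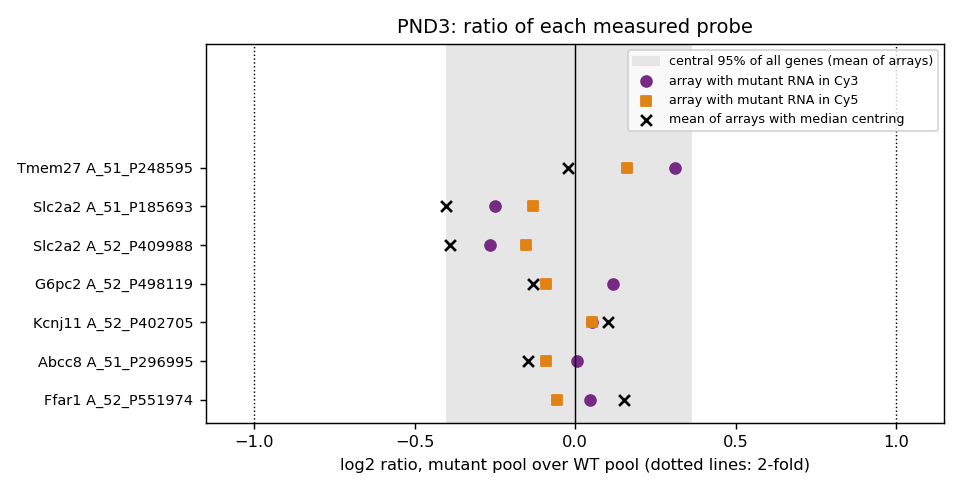
PND3 log2 ratio of the mutant pool over the WT pool for the 7 measured probes, with mutant RNA in Cy3 (circles) and in Cy5 (squares), and the mean with median centring (crosses). The grey band is the central 95% of all genes, -0.40 to 0.36, and dotted lines are 2-fold; no probe reaches 2-fold, both Slc2a2 probes lie left of 0, and Tmem27 lies right of 0 with loess and at -0.02 with median centring.

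The proteins that Tmem27 works with were then set beside it. All 12 genes of this list were measured at PND3, 4 lower and 5 higher in the mutant pool on both arrays and none 2-fold apart, with a median ratio of 0.04 against -0.01 over all genes. Over all genes, 37.9% were lower and 30.9% higher on both arrays. The amino acid transporter Slc6a18 stood at 0.33 and Slc6a19 at 0.06. The cystine and dibasic amino acid transporter is made of Slc3a1 and Slc7a9, and these subunits stood at 0.32 and -0.31, apart in sign on both arrays. Slc6a20a stood at -0.29 and the protease Bace2 at 0.04. With median centring Slc6a19 stood at -0.10 and Bace2 at -0.05, whereas Slc6a18 and Slc3a1 stayed above 0. The list's median was then -0.14, against -0.11 over all genes.

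Genes that act further along the secretion pathway were close to 0. Of 21, 19 were measured, 6 lower and 4 higher on both arrays and none 2-fold apart, with a median of -0.02. Over all genes, 37.9% were lower, 30.9% higher and 0.191% 2-fold apart on both arrays, with a median of -0.01. The t-SNARE Stx1a had the largest ratio, 0.27, followed by the glucose transporter Slc2a1 at 0.18 and the cation channel Trpm5 at -0.16. Slc2a1 stood at 0.36 and -0.01 on the separate arrays, and at -0.05 with median centring.

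Paralogs of the 8 genes were read to see how their families stood. Of 28, 26 were measured, 15 lower and 4 higher on both arrays, with a median of -0.07 and none 2-fold apart, against 37.9% lower and 30.9% higher over all genes. With median centring the median was -0.26, against -0.11 over all genes. The liver and kidney glucose-6-phosphatase G6pc, unlike its islet paralog G6pc2, stood at -0.75 and -0.69, with scanner signals of 15243 in the mutant and 25362 in the WT pool, and at -0.98 with median centring. The ubiquitous G6pc3 stood at 0.25, or 0.03 with median centring. Slc30a2, a zinc transporter, stood at -0.39, the urate transporter Slc2a9 at -0.34 and the fructose transporter Slc2a5 at 0.29. Kcnj8 and Abcc9, the paralogs that form a vascular potassium channel, stood at -0.03 and -0.24, both well above background in each pool. Probes of close paralogs can bind each other's transcripts.

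Markers of the tissues that share these genes moved as follows. The 13 proximal tubule markers had a median of 0.00, with 4 lower and 4 higher on both arrays, against 37.9% and 30.9% over all genes. Their range ran from -0.89 for the sulphate transporter Slc13a1 to 0.25 for the urate transporter Slc22a12. The inositol oxygenase Miox stood at -0.52, but at -0.87 and -0.17 on the separate arrays, and the fatty acid transport protein Slc27a2 at -0.24. With median centring the list's median was -0.25, against -0.11 over all genes. The 6 other nephron markers had a median of -0.04, or -0.21 with median centring. The collecting duct water channel Aqp2 stood at 0.49, above every one of the 6 measured members, the podocyte protein Nphs1 at 0.20 and the salt transporter Slc12a1 at -0.20. With median centring Aqp2 stood at 0.24, Nphs1 at 0.03 and Slc12a1 at -0.46. The 7 measured islet markers had a median of -0.02, and the prohormone convertase Pcsk2 was the lowest at -0.38. The pools also differed in sex-linked transcripts. Eif2s3y, from the Y chromosome, stood at 1.29 and Xist at 0.03, and Tmem27 lies on the X chromosome. Their part in the ratios of the 8 genes was not tested.

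**Figure D5:**
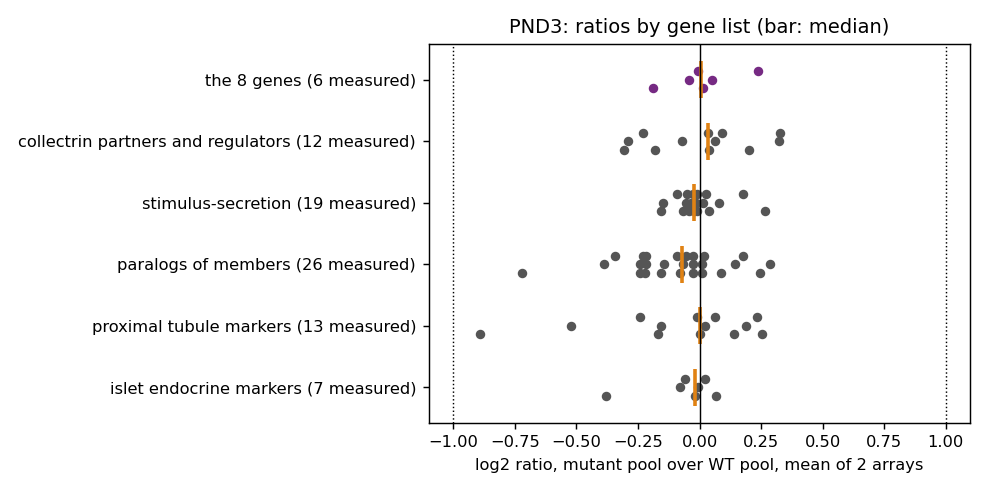
PND3 log2 ratio (mean of 2 arrays, mutant pool over WT pool) of each measured gene in 6 gene lists, with the list median as an orange bar and 2-fold as dotted lines. The 6 measured genes run from -0.19 for Slc2a2 to 0.24 for Tmem27; the lowest points are Slc13a1 at -0.89 among proximal tubule markers and G6pc at -0.72 among paralogs.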

How the data were processed

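Per the labels' protocols, E15.5 RNA was labelled in 2 cycles for Affymetrix arrays and PND3 RNA was amplified, labelled (Cy3 or Cy5) and put on Agilent arrays. For E15.5 the authors deposited linear intensities. How these were made from scanner values is not stated in the labels or files. Of 45037 probe sets, 52.6% to 56.4% had a value per array. The PND3 scanner files hold deposited spot, background and processed signal intensities, quality flags and, per the file headers, log10 ratios of Cy5 over Cy3. The authors' deposited value table holds log2 ratios of mutant over WT, with a median of 0 in each column. Scale and direction were found by setting it against the scanner's ratios (r = 0.9996 and 0.9997). Feature Extraction is version 9.1.3.1 per the file headers and 8.1 per the submitters' processing notes.

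R 4.3.3 and limma 3.58.1 were used. The 20273 probe sets with a value on all 7 E15.5 arrays were quantile-normalized and taken as log2(value + 16), which understates changes of dim probe sets. The dimmest, below the 40th percentile by their mean, were dropped, and limma was fitted to the rest with a trended eBayes and Benjamini-Hochberg adjusted p-values. PND3 signals were corrected by normexp with an offset of 50, which draws dim ratios toward 0, and normalized by loess within each array. Spots marked as outliers (18 and 26 of 43379) were left out, and 0 spots were saturated. The brightest measured probe stood for each gene, and 22951 of 41174 probes were named through RefSeq accessions (GRCm38.p6). Promoters are RefSeq's. The fit and the loess step were tested on simulated data.

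Named genes were the 8 members, and in each list those 2-fold apart, up to 4 others with the largest ratios. Slc6a19, Bace2, G6pc3, Kcnj8, Abcc9 and Xist were added after their values were seen. The members and lists were chosen with earlier results of these data known. Alternatives changed the normalization, offset, pseudocount, filter, probe rule, threshold, block and arrays used. The E15.5 values of the other 6 genes were not analysed here, because the table has no gene names. The values of some genes on these lists are not reported here.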

Additional observations from a re-analysis of the deposited data

Results flagged for a closer look

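The sign of the Tmem27 difference was not the same at E15.5 as at PND3 with loess, and at PND3 it depended on the scaling. At E15.5 all 4 mutant samples lay below all 3 WT samples, with a difference of -1.31 on the log2 scale. At PND3 the mutant pool was higher on both arrays, with a mean log2 ratio of 0.24. With median centring the ratio was -0.02, against a median of -0.11 over all genes. The difference between the ages was not tested, since the platforms differ, PND3 has 1 pool per genotype, and the proximal tubule markers were well above background in both PND3 pools.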

How the results depend on the processing

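At E15.5 the differences of Tmem27 and Slc2a2 kept their sign under all 12 alternatives run for each. Without 1 array at a time Tmem27 ranged from -1.45 to -1.12 and Slc2a2 from -1.46, without WT replicate 2, to -0.69, without WT replicate 1. The count of probe sets called was 5 without normalization between arrays and 4 with the replicate block. It ranged from 0 to 24 without 1 array at a time, with 24 only without WT replicate 3, and was 0 under the other alternatives run. Under the block, whose estimates rest on replicates 2 and 3 of each genotype alone, Tmem27 differed by -1.07 and Slc2a2 by -0.54. Replicates 2 and 3 are the numbers that both genotypes share. Samples that share one deviated from their group means with correlations of 0.06 for replicate 2 and 0.54 for replicate 3. The main fit had no block because the labels do not say that equal numbers pair the samples. Whether they do was not tested. At PND3 the 40 genes 2-fold apart became 70 with an offset of 16, 175 with the scanner software's processed signals, 175 with the authors' value table and 184 at a 1.5-fold threshold, and the cause was not tested beyond the threshold itself. The count of measured member probes 2-fold apart was 0 under all 6 alternatives. Read from a single array, the Tmem27 ratio was 0.31 (mutant in Cy3) or 0.16 (mutant in Cy5). Signals near background limit what can be said of Glp1r, Slc30a8, Ffar1 and Kcnj11.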

Other observations

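Markers of other organs that make Slc2a2 or lie beside the pancreas, and acinar markers of the pancreas itself, were read in the PND3 pools. Of 7 hepatocyte markers 6 were measured, with a median log2 ratio of -0.02 and a wide spread. The plasma protein Ahsg stood at 1.64, 2-fold or more higher on both arrays, Alb at 0.55 and the thyroid hormone carrier Ttr at -0.99. Of 6 enterocyte markers 5 were measured, with a median of 0.02 and the lectin Lgals4 the highest at 0.59. Of 10 acinar markers 7 were measured, with a median of -0.01 and the carboxypeptidase Cpb1 the lowest at -0.25.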
